A study of Mus musculus with 6 samples.

Results

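Interferon-stimulated genes were followed in the livers of Nrf2 knockout mice and of wild-type mice. The module held 35 listed genes, and its members were the probe sets annotated to exactly 1 of them. A single-gene probe set was found for 32 of the 35, 48 probe sets in all, out of 18193 genes with such a probe set. Isg15, Oas1g and Ifi44 had none and were not analysed here. Of the 32, 30 had a probe set bright enough to be tested, among 11102 tested genes. Every probe set of Mx1 and Mx2 was too dim.

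The knockout group was 3 pools of liver RNA from Nrf2-deficient mice, and the control group was 3 pools from Nrf2 wild-type mice. The mice of both groups were on a mixed C57B/SV129 background, were 10 weeks old, and gave 3 animals to each pool. Each pool was hybridised to 1 Affymetrix array, and no injury or treatment is named for these 6 arrays. Pooling hides the spread between animals, the labels do not say whether pools shared animals, and a whole liver holds several cell types, so that fewer cells of a type and less RNA per cell cannot be told apart.

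Interferons are secreted by cells that sense foreign nucleic acid and, for interferon gamma, by activated lymphocytes. Type I interferon acts through a complex with STAT2 and IRF9 that binds the interferon-stimulated response element, while interferon gamma acts mainly through the gamma-activated site. The genes they switch on sense and degrade viral RNA, block viral assembly, load peptides onto MHC class I and attract T cells. Hepatocytes, Kupffer cells and endothelial cells of the liver all respond. Nrf2, the product of Nfe2l2, is a transcription factor of the antioxidant response that binds antioxidant response elements.

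The response element was present in a larger share of the members' promoters than of promoters in general. RefSeq windows (GRCm38.p6) were at hand for 29 of the 35 genes, and the 250 bases before the annotated start were searched on both strands. The element was written as GAAA, any 2 bases, GAAA, or its reverse complement, and was present in 14 of 29 members (48.3%), against 3.46% of 27025 genes. The gamma-activated site, written as TTCNNNGAA, was present in 8 of 29 (27.6%), against 8.13% of all genes. The core antioxidant response element, written as TGACNNNGC or GCNNNGTCA, was present in 6 of 29 (20.7%), against 11.5% of all genes. These 6 were Oasl2, Rsad2, Irf7, Irf8, Igtp and Cxcl10. Neighbouring matches of a motif can overlap, and in Bst2 a match of the gamma-activated site overlapped the response element. A match is a string of letters and not a measured site. The stretches below show 6 members with the response element and then 2 with the gamma-activated site. They run 5′ to 3′ on the gene's strand, with the matches in capitals.
Ifit1: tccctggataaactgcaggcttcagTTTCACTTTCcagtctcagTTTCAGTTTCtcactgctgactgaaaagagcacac
Ifit3: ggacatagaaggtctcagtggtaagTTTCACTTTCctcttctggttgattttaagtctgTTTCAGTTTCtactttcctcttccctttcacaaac
Rsad2: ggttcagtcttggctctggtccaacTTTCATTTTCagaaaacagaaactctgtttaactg
Gbp2: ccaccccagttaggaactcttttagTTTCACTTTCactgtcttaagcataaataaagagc
Irgm1: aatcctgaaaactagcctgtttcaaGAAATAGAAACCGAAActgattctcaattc
Cxcl10: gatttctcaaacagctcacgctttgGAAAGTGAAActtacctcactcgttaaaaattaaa
Irf1: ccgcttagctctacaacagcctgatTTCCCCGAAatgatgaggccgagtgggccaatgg
Irf8: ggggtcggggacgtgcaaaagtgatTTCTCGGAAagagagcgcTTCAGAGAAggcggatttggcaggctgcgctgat

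The Ifit1 stretch lay at chr19:34640760-34640838 on the plus strand, with its matches between 104 and 76 bases before the start. That of Ifit3 lay at chr19:34583348-34583441 (plus), that of Rsad2 at chr12:26456538-26456597 (minus) and that of Gbp2 at chr3:142620579-142620638 (plus). Irgm1 was at chr11:48871421-48871475 (minus), where 2 matches overlap, and Cxcl10 at chr5:92349068-92349127 (minus). Irf1 was at chr11:53769899-53769957 (plus) and Irf8 at chr8:120736162-120736238 (plus).

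The deposited intensities are linear. Their 2% trimmed mean ran from 92.8 to 121 in the knockout arrays and from 92.7 to 132 in the wild-type arrays. Intensities below are after quantile normalization between arrays, and a log2 difference is knockout minus wild type on the scale log2(intensity + 5.26), which understates the change of dim probe sets. Markers of hepatocytes were bright on every array, and all 14 macrophage markers were measured. Nfe2l2, checked first, had deposited intensities of 5.74, 7.40 and 6.90 in the knockout pools, against 696, 598 and 625 in the wild-type pools, a log2 difference of -5.64 ± 0.15. At another, dimmer Nfe2l2 probe set the genotypes overlapped, at 0.14 ± 0.22. The actin ratio of 3′ to 5′ control signal, a sign of RNA integrity, averaged 1.97 ± 0.03 over the knockout arrays and 1.86 ± 0.08 over those of the wild type (SD, n = 3 each). The exact two-sided permutation p of that ratio was 0.1, the smallest that 3 against 3 can give, and its part in the results was not tested.

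No interferon-stimulated gene of the module differed detectably between Nrf2 knockout and wild-type livers. Of the 30 tested members 0 passed an adjusted p of 0.05 by limma, where 0.144% of all tested genes did. At an unadjusted p under 0.05 there were 2 members (6.67%), Cxcl9 and Irf8, where 8.22% of all tested genes lay under it. In the knockout 14 of the 30 were higher and 16 were lower, and 48.6% of all tested genes were lower. The median log2 difference of the members was -0.02, against 0.01 over all tested genes, with values from -0.40 for Oasl1 to 1.07 for Cxcl9. The 3 knockout pools did not overlap the 3 wild-type pools for 3 members (10.0%), where 13.9% of all tested genes showed this. Those were Cxcl9, Cxcl10 and Irf8, all higher in the knockout, where 7.38% of all tested genes had every knockout pool above every wild-type pool. No member had every knockout pool below every wild-type pool, as 6.55% of all tested genes had. The count of 16 lower members was 7 when knockout pool 3 was left out, 19 when knockout pool 1 was, and 10 with arrays weighted by their noise.

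The 95% intervals give, for each gene taken alone, the differences compatible with its values. At the brightest probe set, the 95% interval of 25 of the 30 members lay within a 2-fold difference either way, against 92.2% of all tested genes. The 5 exceptions were Oasl1, Xaf1, Gbp2, Gbp3 and Cxcl9. Over all tested member probe sets the interval lay within 2-fold for 31 of 42 (73.8%), against 91.1% of all tested probe sets. An unpassed test does not show that the genotypes are alike. The intervals are not adjusted for the number of probe sets tested, so they are not the detection limit of the test. Cxcl9 and Irf8 had intervals above 0 and were not called. The smallest difference detectable with 3 pools a group was not measured.

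**Figure D1:**
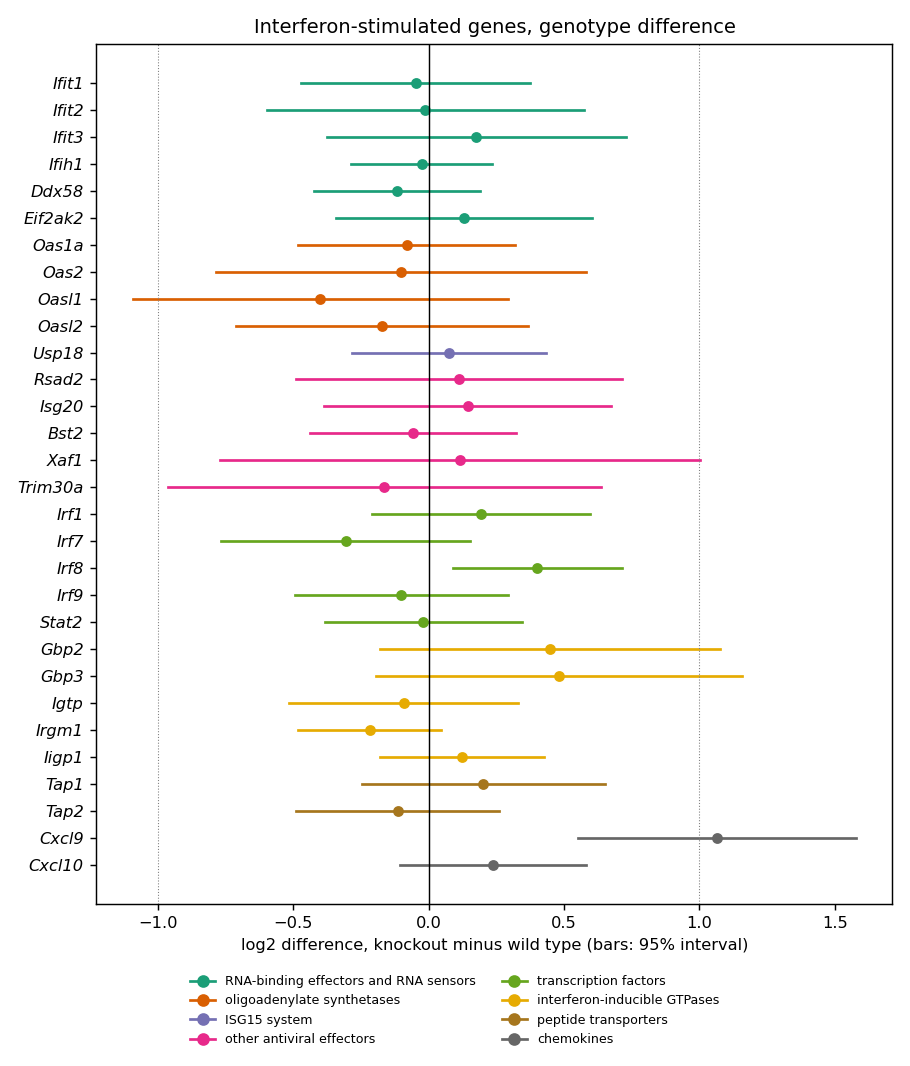
Log2 difference (x axis, knockout minus wild type) of each of the 30 tested interferon-stimulated genes at its brightest probe set, coloured by role; points are estimates, bars are limma 95% intervals, and dotted lines mark 2-fold. The intervals of Cxcl9 and Irf8 lie above 0, and those of the other 28 cross it.

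Among the RNA-binding effectors and sensors, all 6 members were measured, 2 higher and 4 lower, and all 6 intervals lay within 2-fold. Ifit1, which binds viral RNA lacking host cap methylation, measured 71.7, 74.4 and 49.97 in the knockout pools, against 71.0, 57.8 and 72.6 in the wild-type pools. Its log2 difference was -0.05 ± 0.19 (SE, n = 3 per genotype; limma adjusted p = 0.972). Ifit3, of the same gene family, had 102, 130 and 62.9 in the knockout pools, against 93.1, 84.6 and 71.7 in the wild-type pools. For both genes knockout pool 3 was the lowest of all 6, and the genotypes overlapped. The cytosolic RNA sensor genes Ifih1 (MDA5) and Ddx58 (RIG-I) were at -0.03 ± 0.11 and -0.12 ± 0.13. At a dimmer tested probe set Ddx58 was at -0.39 ± 0.21, with the groups overlapping. Eif2ak2, the kinase PKR that halts translation on double-stranded RNA, was at 0.13 ± 0.21 at its brightest probe set and at -0.06 and -0.20 at its other 2. Ifit2, another RNA binder of the family, was at -0.01 ± 0.26.

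The oligoadenylate synthetases make the second messenger that activates RNase L, and Oasl1 and Oasl2 are relatives. All 4 tested members were lower in the knockout, and none passed. Oasl1 measured 53.0, 66.3 and 24.9 in the knockout pools, against 70.4, 50.6 and 63.0 in the wild-type pools. Knockout pool 3 alone lay far below the rest, and the other knockout pools lay within the wild-type range. The log2 difference of -0.40 ± 0.30 (limma adjusted p = 0.805) was -0.03 without that pool. Oas1a was at -0.08 ± 0.18, Oas2 at -0.10 ± 0.30 and Oasl2 at -0.17 ± 0.24. The paralogues are alike in sequence, so cross-hybridisation between them is uncertain. Usp18, the protease that removes ISG15 from proteins and damps the type I receptor, was at 0.08 ± 0.16.

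The other antiviral effectors gave 3 of 5 tested members higher and 2 lower. Rsad2 (viperin), which makes a chain-terminating nucleotide, measured 124, 200 and 84.2 in the knockout pools, against 122, 109 and 125 in the wild-type pools. Knockout pool 2 was the highest and knockout pool 3 the lowest of all 6, and the same pools were the highest and the lowest at its other 2 probe sets. The log2 difference was 0.11 ± 0.26 (limma adjusted p = 0.954). Bst2 (tetherin), which holds budding virions at the cell surface, had 877, 700 and 550 in the knockout pools, against 679, 676 and 829 in the wild-type pools. Its log2 difference was -0.06 ± 0.17, with the groups overlapping. The exonuclease gene Isg20 was at 0.15 ± 0.23, the restriction factor gene Trim30a at -0.16 ± 0.35 and the apoptosis-linked gene Xaf1 at 0.12 ± 0.39. The 2 tested probe sets of Xaf1 ordered the pools differently, with wild-type pool 3 the highest at one, 117, and the lowest at the other, 6.29, so its value is uncertain. The dynamin-like antiviral genes Mx1 and Mx2 were under the filter, and Mx1 measured 9.85, 22.4 and 6.48 in the knockout pools, against 21.1, 9.01 and 30.7 in the wild-type pools. Neither was called in the fit without the filter, with adjusted p-values of 0.894 for Mx1 and 0.916 for Mx2.

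Of the 5 transcription factors of the response 2 were higher and 3 lower, and only Irf8 had genotypes that did not overlap. Irf8, which directs the development of monocytes, macrophages and dendritic cells and is itself induced by interferon gamma, measured 84.5, 86.8 and 82.9 in the knockout pools, against 56.6, 68.7 and 63.8 in the wild-type pools. The knockout pools lay close together above all wild-type pools. The log2 difference was 0.40 ± 0.14 (95% interval 0.09 to 0.71), with an unadjusted p of 0.0174 and a limma adjusted p of 0.567. At its second probe set it was 0.50 ± 0.24, with overlapping groups. Irf7, the factor that amplifies type I interferon production, had 179, 127 and 107 in the knockout pools, against 170, 140 and 198 in the wild-type pools. Here the groups overlapped, and the log2 difference was -0.31 ± 0.20 (limma adjusted p = 0.769). Stat2 and Irf9, the partners that bind the response element, were at -0.02 ± 0.16 and -0.10 ± 0.17. At its dimmer tested probe set Stat2 was at -0.32 ± 0.33, with the groups overlapping. Irf1, itself a gene induced by interferon gamma, was at 0.19 ± 0.18.

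The interferon-inducible GTPases attack the vacuoles of intracellular parasites. Of the 5 members 3 were higher and 2 lower, with no call. Iigp1 measured 6124, 4103 and 5436 in the knockout pools, against 4862, 4479 and 4847 in the wild-type pools, and a log2 difference of 0.12 ± 0.13. The wild-type pools were close together and lay inside the knockout range. The guanylate-binding protein genes Gbp2 and Gbp3 were at 0.45 ± 0.28 and 0.48 ± 0.30 (limma adjusted p = 0.749 and 0.752). Gbp2 was highest in knockout pool 2, at 99.8, and Gbp3 in knockout pool 1, at 93.0. Irgm1, which guards host membranes against the other GTPases, was at -0.22 ± 0.12, and Igtp was at -0.09 ± 0.19. The peptide transporter genes Tap1 and Tap2, whose products carry peptides to MHC class I, were at 0.20 ± 0.20 and -0.11 ± 0.16. The other 3 probe sets of Tap1 were under the filter and went the other way.

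The chemokine genes, whose products draw CXCR3-bearing T and NK cells, were both higher in the knockout, and Cxcl9 had the highest log2 difference of the 30 tested members. Cxcl9, induced mainly by interferon gamma, measured 395, 425 and 259 in the knockout pools, against 128, 165 and 213 in the wild-type pools. Every knockout pool lay above every wild-type pool. The log2 difference was 1.07 ± 0.23, a fold of 2.09 (95% interval 1.47 to 2.99), with an unadjusted p of 0.00121 and a limma adjusted p of 0.242. It stayed between 0.79 and 1.28 over 16 alternatives, with adjusted p-values from 0.0696 to 0.710. A dimmer second probe set had 29.8, 50.2 and 24.7 in the knockout pools, against 16.3, 24.8 and 25.2 in the wild-type pools, with a log2 difference of 0.52 ± 0.27. There the groups overlapped, with knockout pool 3 below wild-type pools 2 and 3. Cxcl10 had 55.6, 63.6 and 53.2 in the knockout pools, against 44.6, 50.1 and 48.8 in the wild-type pools. Its groups did not overlap, and its log2 difference was 0.24 ± 0.15 (limma adjusted p = 0.757).

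**Figure D2:**
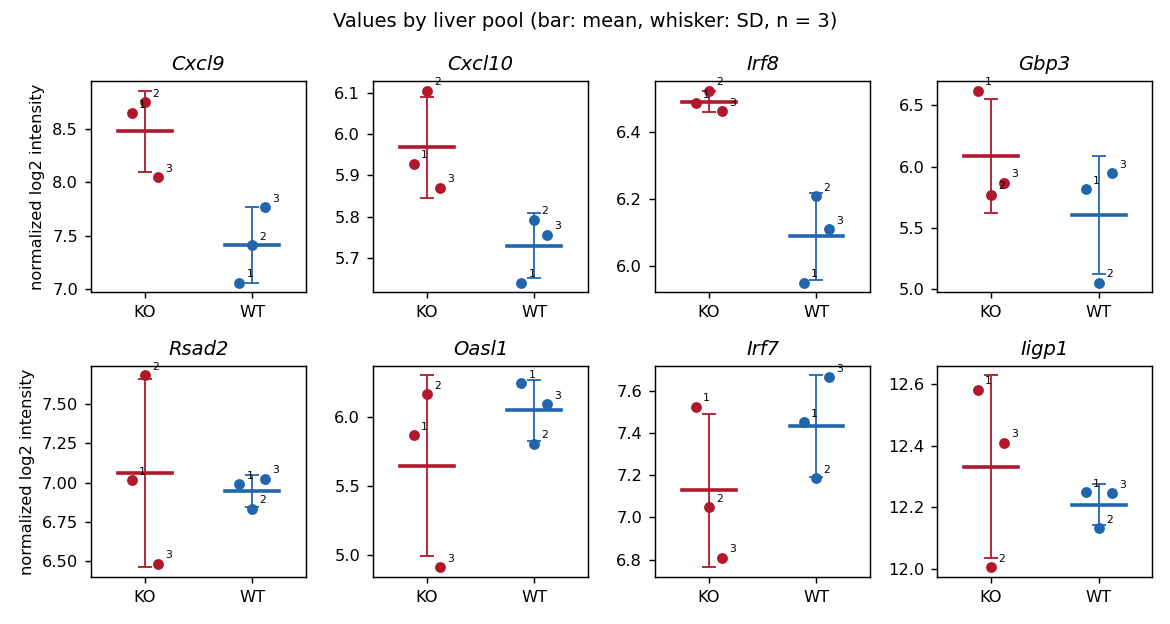
Normalized log2 intensity (y axis, scaled separately for each gene) of 8 interferon-stimulated genes in the 3 knockout (KO, red) and 3 wild-type (WT, blue) pools; numbers are the pools, thick lines the means and whiskers the SD. Cxcl9, Cxcl10 and Irf8 have all knockout pools above all wild-type pools, while the groups of the other 5 genes overlap.

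Where several tested probe sets measured a member, the direction of the genotype difference was the same for 8 of 10 genes. The exceptions were Eif2ak2 and Xaf1. Over all 42 tested member probe sets, 20 were higher, 22 lower and 0 called by limma, with 2 at an unadjusted p under 0.05 and 0.142% of all tested probe sets called.

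The members differed together between pools of the same genotype. In knockout pool 1 all 30 members lay above their own mean over the 6 pools, against 54.1% of all tested genes. In knockout pool 3, 23 of 30 (76.7%) lay below it, against 53.3% of all tested genes. Wild-type pool 2 was low as well: 6 of 30 (20%) lay above their mean there, against 53.0% of all tested genes. The members' median deviation was -0.27 log2 in knockout pool 3 and -0.09 in wild-type pool 2. At its brightest probe set, each of the 30 members was higher in knockout pool 1 than in knockout pool 3, as were 54.1% of all tested genes. The median of that difference was 0.50 log2 for the members, from 0.03 for Irf8 to 0.99 for Xaf1, and 0.03 for all tested genes, while the median absolute difference between the genotype means of the members was 0.13. Over all 42 tested member probe sets, 39 were higher in knockout pool 1 than in knockout pool 3, and 38 lay above their mean in knockout pool 1. The dimmer tested probe set of Xaf1 went the other way, at 40.2 in knockout pool 1 and 80.8 in knockout pool 3. So did the dimmer probe set of Stat2, at 101 and 117, and the second brightest of Eif2ak2, at 44.9 and 55.1. These pools were picked out after their values were seen, and these counts carry no test, since the members share the same RNA and are not replicates.

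The scaling of the arrays bears on that pattern. Knockout pool 1 was above the mean for 28 of 30 members when arrays were centred on their medians, where it was above for 37.2% of all tested genes. With arrays scaled to a common trimmed mean the count was 30, against 56.8% of all tested genes. With no scaling it was 15 of 30, against 14.3%. Knockout pool 1 and wild-type pool 2 had the lowest trimmed mean intensities, 92.8 and 92.7. Knockout pool 1 was above knockout pool 3 for 28 of 30 members with median centring and for 21 of 30 with no scaling, against 40.2% and 17.8% of all tested genes. With no scaling the median of that difference was 0.19 log2 for the members and -0.31 for all tested genes. Leaving out each other pool in turn left between 28 and 30 members above the mean in knockout pool 1.

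The members did not all peak in the same pool. Knockout pool 1 was the highest for 14 members, among them Irf1, Irf9, Stat2, Tap1, Tap2, Igtp and Bst2, where it was the highest for 15.1% of all tested genes. Knockout pool 2 was the highest for 8, namely Ifit1, Ifit3, Rsad2, Isg20, Irf8, Gbp2, Cxcl9 and Cxcl10, and the lowest for 6, namely Oas2, Irf9, Stat2, Igtp, Irgm1 and Iigp1. Over all tested genes it was the highest for 23.5% and the lowest for 19.6%, close to the shares of the members. Knockout pool 3 was the lowest for 12 and the highest for 0, against 18.9% and 15.5% of all tested genes. Wild-type pools 1, 2 and 3 were the highest for 3, 1 and 4 members. The gap between the highest and the lowest pool had a median of 0.73 log2 over the members and 0.52 over all tested genes, whose probe sets were brighter, with a median normalized log2 level of 7.09 against 6.59 for the members.

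**Figure D3:**
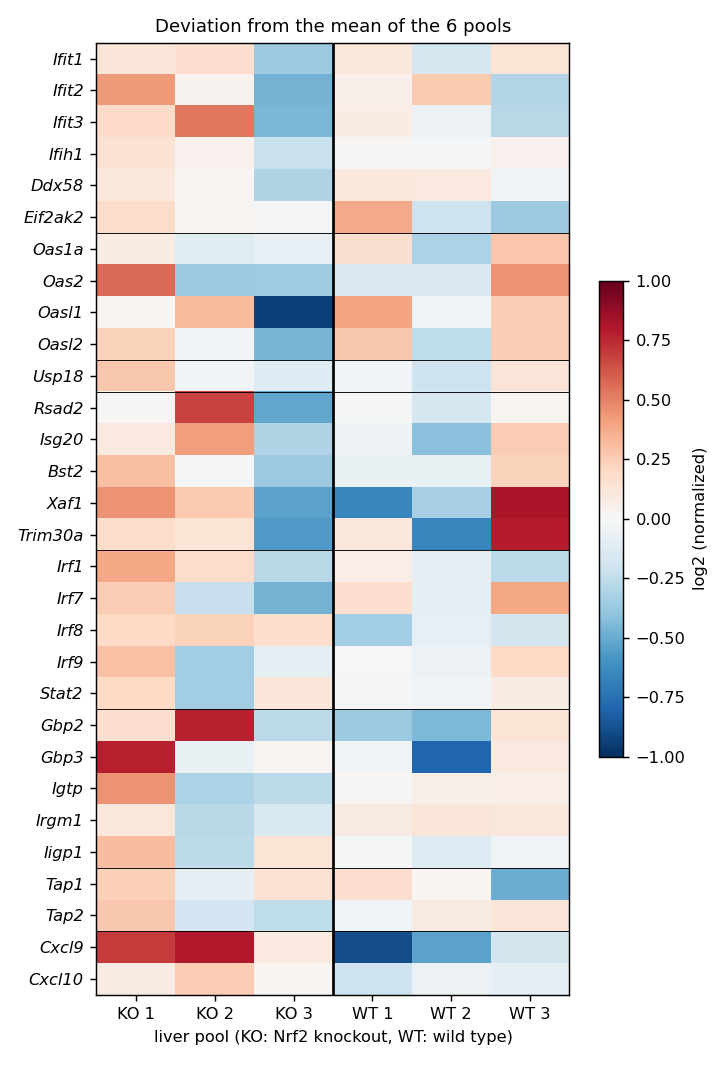
Deviation of each tested interferon-stimulated gene (rows, grouped by role) from its mean over the 6 liver pools, in log2 units, red above and blue below the mean, with the colour limits at 1 and -1; knockout pools are left of the line and wild-type pools right of it. The column of knockout pool 1 is above the mean in all 30 rows, and that of knockout pool 3 is below it in 23. The column of wild-type pool 2 is above it in 6.

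The pool pattern was also set out by the response element, with no test of the difference. Among the 12 tested members with a match, the median deviation was 0.18 log2 in knockout pool 1 and -0.27 in knockout pool 3. Among the 14 tested members with a promoter window and no match it was 0.23 and -0.29. Knockout pool 3 was the lowest pool for 4 of the 12 members with a match and for 7 of the 14 without. The median genotype difference was -0.03 with a match and 0.05 without.

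Other genes of the pathway, from lists chosen for this work, gave no calls either. Of 98 tested genes beyond the members, 0 passed by limma, against 0.144% of all tested genes. At an unadjusted p under 0.05 there were 9 (9.18%), 4 higher and 5 lower, against 8.22% of all tested genes. The interferon genes themselves were mostly dim: of 10 with a single-gene probe set, Ifna2 alone was bright enough to be tested (0.06 ± 0.17 log2), and Ifnb1 and Ifng were under the filter. Among receptors and their signalling genes, 12 of 15 were higher and 3 lower. The receptor chain gene Ifngr2 was the lowest, with 53.7, 56.7 and 71.8 in the knockout pools, against 81.4, 84.7 and 80.5 in the wild-type pools, at -0.42 ± 0.15 (limma adjusted p = 0.600). Its groups did not overlap. The transcription factor gene Stat3 was at 0.31 ± 0.14, the receptor chain gene Il10rb at 0.31 ± 0.16 and the kinase gene Jak1 at 0.24 ± 0.13.

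Among 19 genes of nucleic acid sensing, 10 were higher and 9 lower, with Dhx58, a relative of RIG-I, at -0.40 ± 0.17 (limma adjusted p = 0.640). Among 16 genes of MHC class I assembly, 6 were higher and 10 lower, with the proteasome activator gene Psme1 at -0.24 ± 0.11 and the immunoproteasome gene Psmb10 at 0.24 ± 0.12. Among 51 other interferon-stimulated genes, 24 were higher and 27 lower. The 4 with the smallest p-values of this list were Ifitm2, Serping1, Dtx3l and Ccl5. Ifitm2, an inhibitor of viral entry, was at 0.20 ± 0.08 and Serping1, the C1 inhibitor gene, at 0.18 ± 0.07 (limma adjusted p = 0.607 for both), while the ubiquitin ligase gene Dtx3l was at -0.27 ± 0.11 (limma adjusted p = 0.620). The groups of these 3 did not overlap. In the whole list this held for 8 of 51 (15.7%), 3 higher and 5 lower, against 13.9% of all tested genes. The T cell chemokine gene Ccl5 had 65.2, 83.4 and 25.4 in the knockout pools, against 34.99, 24.97 and 18.5 in the wild-type pools. It overlapped at knockout pool 3, and its difference was 0.91 ± 0.38 (limma adjusted p = 0.638). The pool pattern of the members was present in this list too, which held none of them. In knockout pool 1, 43 of 51 lay above their mean, against 54.1% of all tested genes. In knockout pool 3, 40 of 51 lay below it, against 53.3%. These counts were 13 and 13 of 19 for nucleic acid sensing and 13 and 11 of 16 for MHC class I assembly. The receptor and signalling genes did not follow, with 8 and 6 of 15.

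Macrophage markers were also high in knockout pool 1 and low in knockout pool 3, but their lowest sum was in wild-type pool 1. Of 14 Kupffer cell and macrophage markers, all tested, 11 were higher and 3 lower in the knockout. By limma 0 passed, against 0.144% of all tested genes, and 3 (21.4%) were at an unadjusted p under 0.05, against 8.22%. The summed normalized intensity of the 14 markers was 10107, 8786 and 7781 in the knockout pools, against 7357, 7526 and 8893 in the wild-type pools. Knockout pool 1 was the highest, and wild-type pool 3 lay above knockout pools 2 and 3, so that the groups overlapped. In knockout pool 1, 13 of the 14 lay above their mean, and in knockout pool 3, 11 of 14 lay below it. The lists parted in wild-type pool 1, where 1 of the 14 markers lay above its mean, against 16 of the 30 interferon-stimulated members. Mpeg1, a pore-forming protein gene of macrophages, was at 0.68 ± 0.18 (limma adjusted p = 0.402) and the lysozyme gene Lyz2 at 0.41 ± 0.15 (0.594). These were the 2 of 14 markers (14.3%) whose groups did not overlap, against 13.9% of all tested genes. The 3 lower markers, named after their values were seen, were Clec4f at -0.21 ± 0.13, Cd5l at -0.12 ± 0.15 and Marco at -0.35 ± 0.29. The part of these cells in the values of Cxcl9, Irf8 or the pool pattern was not tested.

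Markers of lymphocytes, neutrophils and dendritic cells were mostly close to the limits of the arrays. For T and NK cells 5 of 13 measured markers were tested and Cd3e, Cd3d, Cd3g and Nkg7 were under the filter, and the summed intensity was 141, 147 and 106 in the knockout pools, against 106, 122 and 111 in the wild-type pools. For neutrophils it was 237, 230 and 130 in the knockout pools, against 123, 138 and 175 in the wild-type pools, over 4 markers. The median deviation of the T and NK cell, B cell and neutrophil markers was 0.28, 0.41 and 0.41 log2 in knockout pool 1, and -0.22, -0.46 and -0.53 in knockout pool 3, on the same sides as the members. Not every list followed: dendritic cell markers were at -0.02 in knockout pool 1 and -0.14 in knockout pool 3. Sinusoidal endothelial markers were at 0.07 and 0.09, with 8 of 9 above their mean in knockout pool 3. The part of these cells was not tested. For dendritic cells 5 markers were tested, and the sum was 292, 318 and 290 in the knockout pools, against 335, 324 and 322 in the wild-type pools. That separation came from Klk1, a gene also expressed outside these cells, at -0.54 ± 0.16 (limma adjusted p = 0.497). Without it the sum over the other 4 markers was 249, 272 and 229.5 in the knockout pools, against 261, 247 and 251 in the wild-type pools, and overlapped. B cell sums overlapped, from 88.7 to 238 in the knockout pools and from 98.7 to 300.1 in the wild-type pools. Sinusoidal endothelial markers were higher for 6 of 9, with sums from 3566 to 3689 in the knockout pools and from 3233 to 3635 in the wild-type pools. Hepatocyte markers, with sums from 83251 to 86388 in the knockout pools and from 81165 to 84281 in the wild-type pools, had medians within 0.05 log2 of their mean in every pool.

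**Figure D4:**
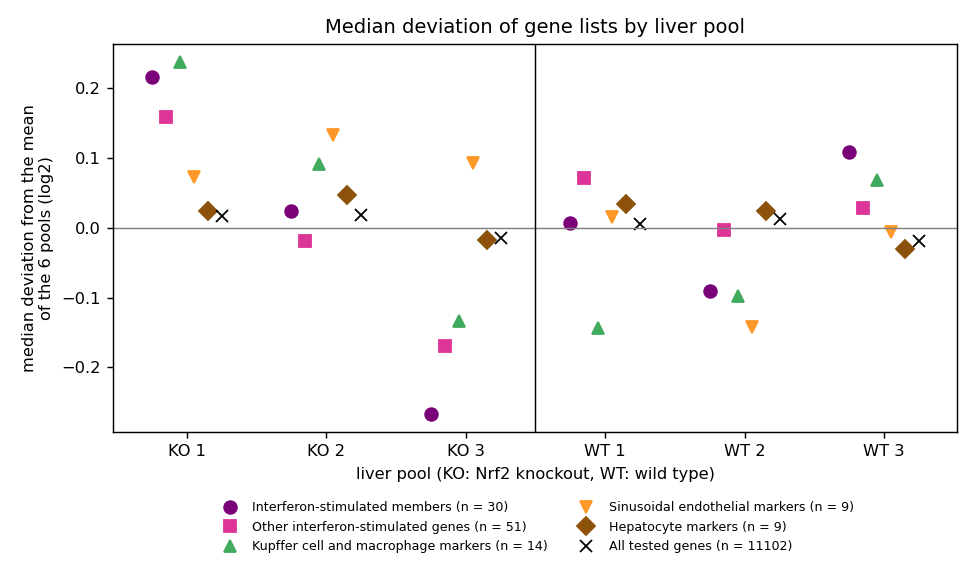
Median deviation from the mean of the 6 pools (y axis, log2) of 6 gene lists in each liver pool (x axis, knockout pools left of the line), with the number of genes in the legend. The interferon-stimulated members are at 0.22 in knockout pool 1 and -0.27 in knockout pool 3, the macrophage markers at 0.24 and -0.13, and all tested genes at 0.02 and -0.01. In wild-type pool 1 the members are at 0.01 and the macrophage markers at -0.14.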

How the data were processed

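Liver RNA pools of 3 mice, 3 per genotype, were hybridised to 1-colour arrays. The deposited values are probe set intensity values on a linear scale, from 0.0174 to 16555; the submitters' processing notes name GCOS 1.4; how signals were computed and scaled is not given in the sources used. Gene names come from the platform annotation, with symbols checked against a mouse gene table of assembly GRCm38.p6: 34945 had 1 gene, 932 several and 9160 none here. The 64 control probe sets were left out.

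From these, log2(intensity + 5.26) was computed, with the 25th percentile of all intensities as pseudocount, and quantile normalized. Probe sets whose mean reached the median were tested (22519) with limma 3.58.1 in R 4.3.3 (eBayes, trend on intensity); p-values were adjusted by Benjamini-Hochberg over all of them, with a threshold of 0.05. A gene took its brightest tested single-gene probe set. A fit without the filter covered the 22518 dimmer probe sets. The number of arrays limits the precision.

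The members, lists and tests were chosen with earlier results of these data known. Every member could be named, with Nfe2l2 and up to 4 genes of each list with the smallest p. Same-numbered pools of the 2 genotypes were not taken as pairs: the correlations of their deviations from the group means were 0.13, 0.05 and 0.25, and not every one was over 0.1. The alternatives were 2 other scalings, 2 pseudocounts, 2 filters, no trend, array weights, a block for the replicate number, leaving out each pool, and averaging a gene's probe sets. Those of the pool pattern, and the dendritic cell sum without Klk1, were added after seeing the data. The procedure was tested on simulated data.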

Additional observations from a re-analysis of the deposited data

How the results depend on the processing

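No member and no other gene of the pathway passed by limma under any of the 16 alternatives; over the 472 member values they gave, the lowest adjusted p was 0.0696, for Cxcl9. With the replicate number as a block, 0 members were called and 16 were lower, and 32 probe sets were called, as without it; the block changed no other call of a member. The count of lower members was 16, but 10 with array weights and between 7 and 19 with a pool left out (7 without knockout pool 3). Over all tested probe sets, the 32 calls were 20 when dim probe sets were kept, 19 when the filter was set to the 70th percentile, 18 without the intensity trend and between 18 and 32 with a pool left out (21 without knockout pool 2, 18 without wild-type pool 2); without the trend 9 genes were called in place of 16. The number of members above their mean in knockout pool 1 was 15 with no scaling. The cause was not tested.

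The sign of an uncalled difference changed for 19 of the 30 members, in 40 of the 472 values, 32 of them with a pool left out. With array weights Ifit2 was at 0.070, Ifih1 at 0.016, Oas2 at 0.10, Bst2 at 0.055, Stat2 at 0.033 and Igtp at 0.033. With trimmed mean scaling Ifit2 was at 0.015, and with the mean of probe sets Eif2ak2 was at -0.044. With a pool left out the ranges were Usp18 from -0.040 to 0.16, Xaf1 from -0.18 to 0.55, Iigp1 from -0.0010 to 0.29, Ifit3 from -0.044 to 0.45, Oas2 from -0.41 to 0.10, Rsad2 from -0.20 to 0.40, Isg20 from -0.029 to 0.33, Irf9 from -0.27 to 0.048, Stat2 from -0.12 to 0.15, Igtp from -0.34 to 0.043, Ifit1 from -0.14 to 0.12, Ifit2 from -0.23 to 0.22, Ifih1 from -0.10 to 0.078, Ddx58 from -0.20 to 0.0070, Oasl2 from -0.34 to 0.019, Bst2 from -0.22 to 0.11, Trim30a from -0.53 to 0.19, Eif2ak2 from -0.018 to 0.35 and Oas1a from -0.26 to 0.038.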
